A study of Mus musculus with 32 samples.

Results

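Mitochondrial ribosomal proteins are the protein parts of the ribosome that works inside mitochondria. Their genes were taken as the protein-coding mouse genes whose GRCm38 symbols begin with Mrpl or Mrps followed by a number. The rule found 78 of the 52636 genes in the count table. By textbook placement, 51 encode large-subunit proteins, 26 encode small-subunit proteins and 1, Mrps36, encodes a protein now placed in the α-ketoglutarate dehydrogenase complex instead of the ribosome. A further split was between proteins with a counterpart in bacterial ribosomes (30 large-subunit and 16 small-subunit genes) and proteins specific to mitochondria (21 and 10). The study sequenced polyadenylated RNA from 32 mouse livers, 4 mice in each of 8 groups, in a model of liver fibrosis and its response to thyroid hormone.

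The mice were either thyroid hormone receptor beta knockouts (KO) or wild type (WT), and all 32 were fed a PTU/LID diet, which makes mice hypothyroid. They received carbon tetrachloride (CCL4, 0.4 µl/g) or oil 2 times a week for 4 weeks, 9 injections in all. In the last week triiodothyronine (T3, 1 µg/ml in the drinking water) or PBS was given, and RNA was prepared 24 hours after the last injection. The groups were therefore KO mice with T3 and CCL4, with T3 and oil, with PBS and CCL4 and with PBS and oil, and the same 4 groups of WT mice. Strain, age and sex were not given in the sources used here. Each library carries its own animal number in the labels, and the deletion is not described further there.

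The mitochondrial ribosome translates the few proteins encoded by mitochondrial DNA, which are all subunits of the respiratory chain and of ATP synthase. All of its proteins are encoded in the nucleus, made in the cytosol and imported, and they assemble with ribosomal RNA made in the organelle. Thyroid hormone raises mitochondrial respiration in liver, mostly through thyroid hormone receptor beta in hepatocytes, and the transcription factors NRF1, YY1 and the ETS-family member GABP are known regulators of nuclear genes for mitochondrial proteins.

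Libraries held 16985162 to 26118055 counts, of which the Mrp genes took 0.212 to 0.352%. Levels are given in CPM, the usual unit of counts scaled to a fixed library size. Dio1, a direct T3 target that encodes deiodinase 1, followed the labels in every library, with 77.3 to 135 CPM in KO livers with T3 and 844 to 1185 in WT livers with T3, and with 3.95 to 20.02 in KO livers with PBS and 0.295 to 1.00 in WT livers with PBS. Reads over Thrb, the gene of the deleted receptor, were present in both genotypes, at 15.9 to 42.6 CPM in KO livers and 10.7 to 66.4 CPM in WT livers. The sources used here do not say which part of Thrb was deleted, so this level does not check the genotype. WT liver 2 and KO liver 3 of the groups with PBS and CCL4 lay farthest from their own group means over all genes. Their distances were 85.3 and 77.9 log2 units against 32.1 to 68.7 for the other libraries. Where leaving out both changed the number of members called, that number is given in the part on how results depend on the processing. Summed CPM of 9 hepatocyte markers, none at 0, was 80739 to 118247 in WT livers with T3 and CCL4, 48881 to 71054 in WT livers with PBS and CCL4 and 123259 to 177045 in WT livers with PBS and oil. Fewer cells of a type and less RNA per cell cannot be told apart in whole liver.

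Of the 78 genes, 77 passed the filter on low counts. Mrpl53 did not, with 1 count over all libraries, and 88.0% of its exon bases are shared on the same strand with the predicted gene Gm42688. The other members were moderately expressed, with mean levels of 5.77 to 116 CPM and a median of 28.7. Per kilobase of exon, the median was 14.5 CPM for the large-subunit genes tested and 9.37 CPM for the small-subunit genes. Mrpl12, which forms the stalk that recruits translation factors, was the most abundant member at 75.7 CPM per kilobase, followed by Mrpl34 at 40.4 and Mrpl14 at 39.9. Mrpl23, Mrpl33 and Mrps25 were the least abundant members tested, at 1.49, 1.88 and 2.07 CPM per kilobase. Exons of 33 members overlap another gene, 28 of them on the opposite strand, and whether counting used strand was not given in the sources used here. Reads of such pairs may therefore be mixed, most of all for Mrps25, with 69.8% of its exon bases overlapped by Nr2c2, and Mrps34, with 63.4% overlapped by Mapk8ip3.

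A test of any difference among the 8 groups called 64 of the 77 members (83.1%), against 77.2% of all 15599 genes tested, a share close to that of other genes. A call is a Benjamini-Hochberg adjusted p under 0.05 over all genes tested, in edgeR's quasi-likelihood test. Differences were small. The ratio of the highest to the lowest group mean had a median of 1.43 over the 77 members and ran up to 2.87, and 31 members passed 1.5 and 6 passed 2. Those 6 were Mrps36, Mrpl34, Mrpl42, Mrpl12, Mrps18b and Mrpl14. WT livers with T3 and CCL4 held the highest group mean of 32 members and the lowest of 0, while WT livers with PBS and CCL4 held the lowest group mean of 34. These tallies rest on TMM scaling: as a share of all counts the members took 0.269% in WT livers with T3 and CCL4 and 0.281% in WT livers with PBS and CCL4. In the 12 comparisons of group pairs, 66 members were called at least once, and the 11 called in none were Mrpl2, Mrpl3, Mrpl9, Mrpl32, Mrpl36, Mrpl38, Mrpl40, Mrpl44, Mrps9, Mrps12 and Mrps18c. Neither this tally nor the fold ranges were counted over all genes, so they do not set the members apart from other genes.

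The 4 members with the smallest p in the 8-group test had these promoters, 250 bases before to 50 after the start of the RefSeq gene (GRCm38.p6), shown because 2 of the genes rose and 2 fell with T3 in injured WT livers. Capitals mark letters of the NRF1 (GCATGCGC), ETS (CCGGAAG) and YY1 (AAGATGGC) motifs on either strand.
Mrpl42: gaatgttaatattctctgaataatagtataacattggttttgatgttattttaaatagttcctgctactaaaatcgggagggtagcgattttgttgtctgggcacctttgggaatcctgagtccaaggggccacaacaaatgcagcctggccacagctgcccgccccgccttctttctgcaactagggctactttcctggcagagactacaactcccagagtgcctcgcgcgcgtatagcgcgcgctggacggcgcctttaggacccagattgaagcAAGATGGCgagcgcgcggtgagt
Mrpl12: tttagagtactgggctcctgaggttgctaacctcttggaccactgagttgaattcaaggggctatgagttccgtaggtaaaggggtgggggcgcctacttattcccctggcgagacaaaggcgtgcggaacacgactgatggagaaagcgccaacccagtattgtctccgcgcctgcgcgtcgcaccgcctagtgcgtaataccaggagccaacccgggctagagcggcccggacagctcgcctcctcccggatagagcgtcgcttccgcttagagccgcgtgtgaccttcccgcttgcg
Mrps18b: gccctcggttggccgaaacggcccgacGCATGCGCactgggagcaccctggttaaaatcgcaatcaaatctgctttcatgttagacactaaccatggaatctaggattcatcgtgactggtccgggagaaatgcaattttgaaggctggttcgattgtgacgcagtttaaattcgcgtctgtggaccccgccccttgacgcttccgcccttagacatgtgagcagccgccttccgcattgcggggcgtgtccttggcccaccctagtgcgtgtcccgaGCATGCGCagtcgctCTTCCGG
Mrpl50: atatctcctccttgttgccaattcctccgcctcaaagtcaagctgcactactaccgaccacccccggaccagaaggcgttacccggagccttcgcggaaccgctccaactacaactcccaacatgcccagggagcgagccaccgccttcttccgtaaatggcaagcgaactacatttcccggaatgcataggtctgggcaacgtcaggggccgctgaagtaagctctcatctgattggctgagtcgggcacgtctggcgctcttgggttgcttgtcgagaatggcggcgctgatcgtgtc

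The Mrpl42 window lies at chr10:95501900-95502199 on the minus strand, and its YY1 match begins 27 bases past the annotated start. The Mrps18b window lies at chr17:35916391-35916690 on the minus strand and holds 2 NRF1 matches, which begin at -223 and 28 bases from the RefSeq start, and an ETS match on the opposite strand, written CTTCCGG, 43 bases past it. This whole window lies before the Mrps18b start at 35916389 in the gene positions given below. Neither the Mrpl12 window, at chr11:120484387-120484686 on the plus strand, nor the Mrpl50 window, at chr4:49521034-49521333 on the minus strand, holds a match to these letters. Promoter windows were found for 69 of the 78 members. The ETS letters were in 24 of the 69 (34.8%) against 12.4% of 16478 windows of coding genes, the YY1 letters in 12 (17.4%) against 3.28%, and the NRF1 letters in 8 (11.6%) against 3.77%. The AAG that closes the ETS letters can also open the YY1 letters, so both can share bases. A direct repeat of AGGTCA with 4 bases between, a form that thyroid hormone receptors bind, was in 0 of the 69 member windows and in 1 coding window. A match is a run of letters and was not tested as a site.

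Mrpl42 encodes a mitochondria-specific protein of the large subunit and lies at chr10:95480805-95501940. In KO livers with CCL4 it measured 42.9, 40.6, 37.3 and 38.8 CPM with T3 and 43.6, 44.9, 38.4 and 49 CPM with PBS. In WT livers with CCL4 it measured 66.3, 71.9, 70.8 and 85.5 CPM with T3 against 34.6, 26.2, 30.4 and 41 CPM with PBS. The KO groups overlapped, while every WT liver with T3 was above every WT liver with PBS. In oil-injected livers Mrpl42 was 54.6, 58.8, 55.1 and 54 CPM in KO mice with T3 against 49.4, 43.8, 48.6 and 55.6 CPM in KO mice with PBS, and 66.9, 72.4, 62.6 and 54.4 CPM in WT mice with T3 against 51.5, 45.1, 48.2 and 51.3 CPM in WT mice with PBS. Of these oil pairs, only the WT groups were apart without overlap.

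Mrpl12, at chr11:120484613-120489065, showed the same arrangement at a higher level. KO livers with CCL4 gave 90.5, 97.9, 96.4 and 89.2 CPM with T3 and 95.1, 110, 93.8 and 121 CPM with PBS. WT livers with CCL4 gave 146, 167, 175 and 169 CPM with T3 against 75.2, 65.4, 68.1 and 89.1 CPM with PBS. The KO groups overlapped and the WT groups were fully separate. In oil livers Mrpl12 was 127, 104, 144 and 140 CPM in KO mice with T3 against 119, 110, 110 and 132 CPM in KO mice with PBS, and 157, 162, 137 and 116 CPM in WT mice with T3 against 105, 101, 96.9 and 102 CPM in WT mice with PBS. Among oil livers the KO groups overlapped and the WT groups did not. Gm16755 overlaps 13.1% of the exon bases of Mrpl12.

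Mrps18b, one of several relatives of bacterial ribosomal protein S18 but counted here as mitochondria-specific, lies at chr17:35910379-35916389 and ran the other way. KO livers with CCL4 gave 40.1, 50.6, 53.5 and 45 CPM with T3 and 40.8, 37.5, 54.3 and 37.2 CPM with PBS. WT livers with CCL4 gave 36.9, 29.3, 30.04 and 31.5 CPM with T3 against 54.8, 54.8, 44.2 and 44.6 CPM with PBS. The KO groups overlapped, and every WT liver with T3 was below every WT liver with PBS. Oil livers were low in all 4 groups, at 19.3 to 27.1 CPM in KO mice with T3, 24.7 to 32.8 in KO mice with PBS, 21.8 to 25.2 in WT mice with T3 and 22.4 to 38.2 in WT mice with PBS. In every combination of genotype and hormone, the lowest CCL4 liver was above the highest oil liver. The antisense gene Gm16279 overlaps 30.5% of the exon bases of Mrps18b.

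Mrpl50, a mitochondria-specific large-subunit gene at chr4:49512596-49521093, was lower with T3 in WT livers whichever injection was given. KO livers with CCL4 gave 74.4, 78.1, 87.3 and 74.4 CPM with T3 and 79.1, 79.5, 105.03 and 76.7 CPM with PBS, and KO livers with oil gave 60.4, 47.1, 57.1 and 58.8 CPM with T3 and 62.3, 71.5, 78 and 61.4 CPM with PBS. With CCL4 the KO groups overlapped, and with oil they were apart by about 1 CPM. In WT livers with CCL4 it measured 57, 56.8, 54.4 and 45.5 CPM with T3 against 71.9, 71, 74.7 and 76.2 CPM with PBS. In WT livers with oil it measured 48.3, 44.9, 49.3 and 42.9 CPM with T3 against 70.2, 64.9, 75.6 and 75.6 CPM with PBS. The WT livers with T3 lay below all WT livers with PBS in both cases.

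**Figure D1:**
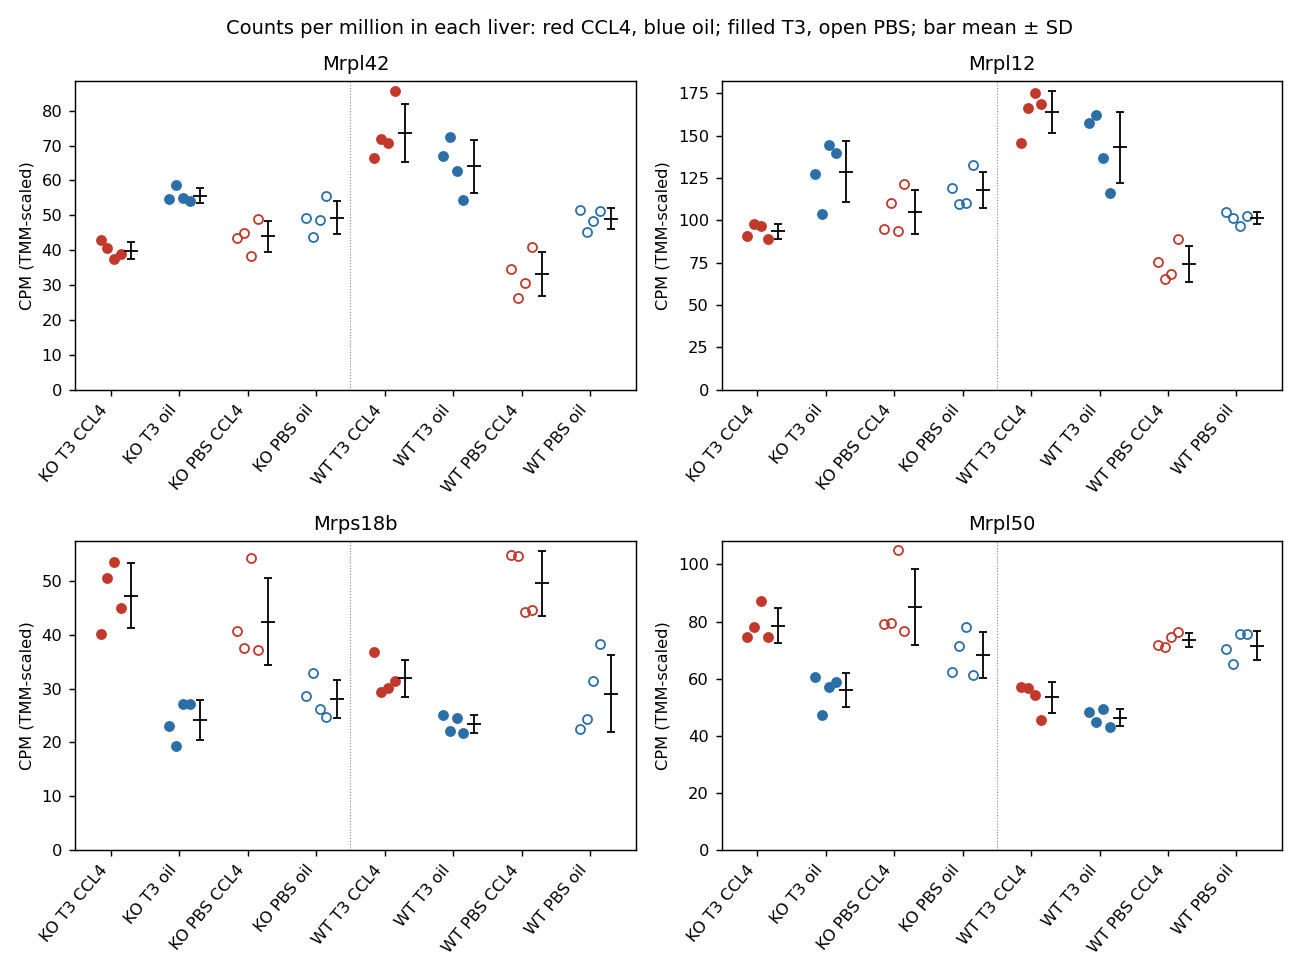
Levels (CPM) of Mrpl42, Mrpl12, Mrps18b and Mrpl50 in each of the 32 livers, by group (4 livers each), with bars at the mean ± SD. In KO livers with CCL4 the T3 and PBS points overlapped for all 4 genes, while in WT livers with CCL4 Mrpl42 was 66.3 to 85.5 CPM with T3 and 26.2 to 41 CPM with PBS.

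The first comparison asked what T3 did to these genes in injured WT livers. T3 raised 34 members and lowered 4 (38 of 77, against 41.7% of all genes called, 20% higher and 21.7% lower), with a median log2 fold change of 0.25 over the 77 against -0.06 over all genes. When libraries were scaled by their total counts alone, the split turned to 11 higher and 17 lower and the member median to -0.11, while all genes moved with it to -0.42. The members' median was 0.31 above that of all genes under either scaling. The direction of a typical member in this comparison thus depends on the scaling. A change of scaling shifts all genes of a comparison nearly alike, so the equal distance between the medians is no separate check. Leaving out each library in turn gave 32 to 38 calls.

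Large-subunit genes rose in 19 and fell in 3 of 50 tested (median log2 fold change 0.22), and small-subunit genes rose in 14 and fell in 1 of 26 (0.34). Among proteins with bacterial counterparts, 13 of 30 large-subunit and 9 of 16 small-subunit genes rose, and 2 and 0 fell. Among mitochondria-specific proteins, 6 of 20 large-subunit genes and 5 of 10 small-subunit genes rose, and 1 of each fell. Whether these classes differ was not tested. In large-subunit genes the smallest adjusted p-values belonged to Mrpl42, with a log2 fold change of 1.16 ± 0.12 (SE; adjusted p = 1.27e-08), Mrpl12 at 1.14 ± 0.12 (3.29e-08) and Mrpl34, a small protein bound to the ribosomal RNA, at 1.24 ± 0.16 (6.75e-07). Mrpl4, which lines the tunnel through which new peptides leave, rose by 0.98 ± 0.14 and Mrpl13 by 0.65 ± 0.12. Mrpl16, near the centre where peptide bonds form, rose by 0.48 ± 0.09, but its adjusted p was 0.363 under scaling by total counts.

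Mrpl34 measured 32.5, 36.4, 31.2 and 42.4 CPM in WT livers with T3 and CCL4 against 17.2, 12, 16.3 and 14.6 CPM in WT livers with PBS and CCL4, without overlap. Mrps5, which sits near the entry of the messenger RNA channel, measured 43.5, 46.8, 49.4 and 55.2 CPM with T3 against 28.4, 21.1, 25.5 and 29 CPM with PBS, again without overlap. Its log2 fold change of 0.91 ± 0.12 had the smallest adjusted p of the small-subunit genes (1.12e-06). Mrps21 rose by 0.85 ± 0.13, Mrps35 by 0.79 ± 0.13, Mrps15 by 0.78 ± 0.14 and Mrps2 by 0.76 ± 0.12. All of these small-subunit calls held under every alternative tried. Mrps27, a pentatricopeptide-repeat protein of the small subunit, rose by 0.72 ± 0.16, with an adjusted p of 0.0705 under scaling by total counts.

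Mrps36, chosen after its values were seen because it showed the widest range of all members, measured 12.6, 12.9, 14.6 and 11 CPM in WT livers with T3 and CCL4 against 3.89, 4.78, 5.29 and 4.89 CPM in WT livers with PBS and CCL4. The groups were well apart, and the log2 fold change was 1.44 ± 0.23 (adjusted p = 1.21e-05). The 4 members that fell were Mrpl50 (-0.46 ± 0.11, adjusted p = 0.00125), Mrps18b (-0.63 ± 0.15, 0.00141), Mrpl17 (-0.47 ± 0.12, 0.00228) and Mrpl24 (-0.37 ± 0.13, 0.0285). The Mrpl24 call was lost without WT livers 2, 3 or 4 with T3 and CCL4 or WT livers 1 or 4 with PBS and CCL4, with adjusted p-values of 0.0525 to 0.0916. Of the 9 hepatocyte markers, 6 rose and 0 fell in the same comparison, and all 6 Kupffer cell markers rose, with a summed level of 564 to 860 CPM with T3 against 152 to 260 CPM with PBS. The part of these shifts in the Mrp values was not tested.

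**Figure D2:**
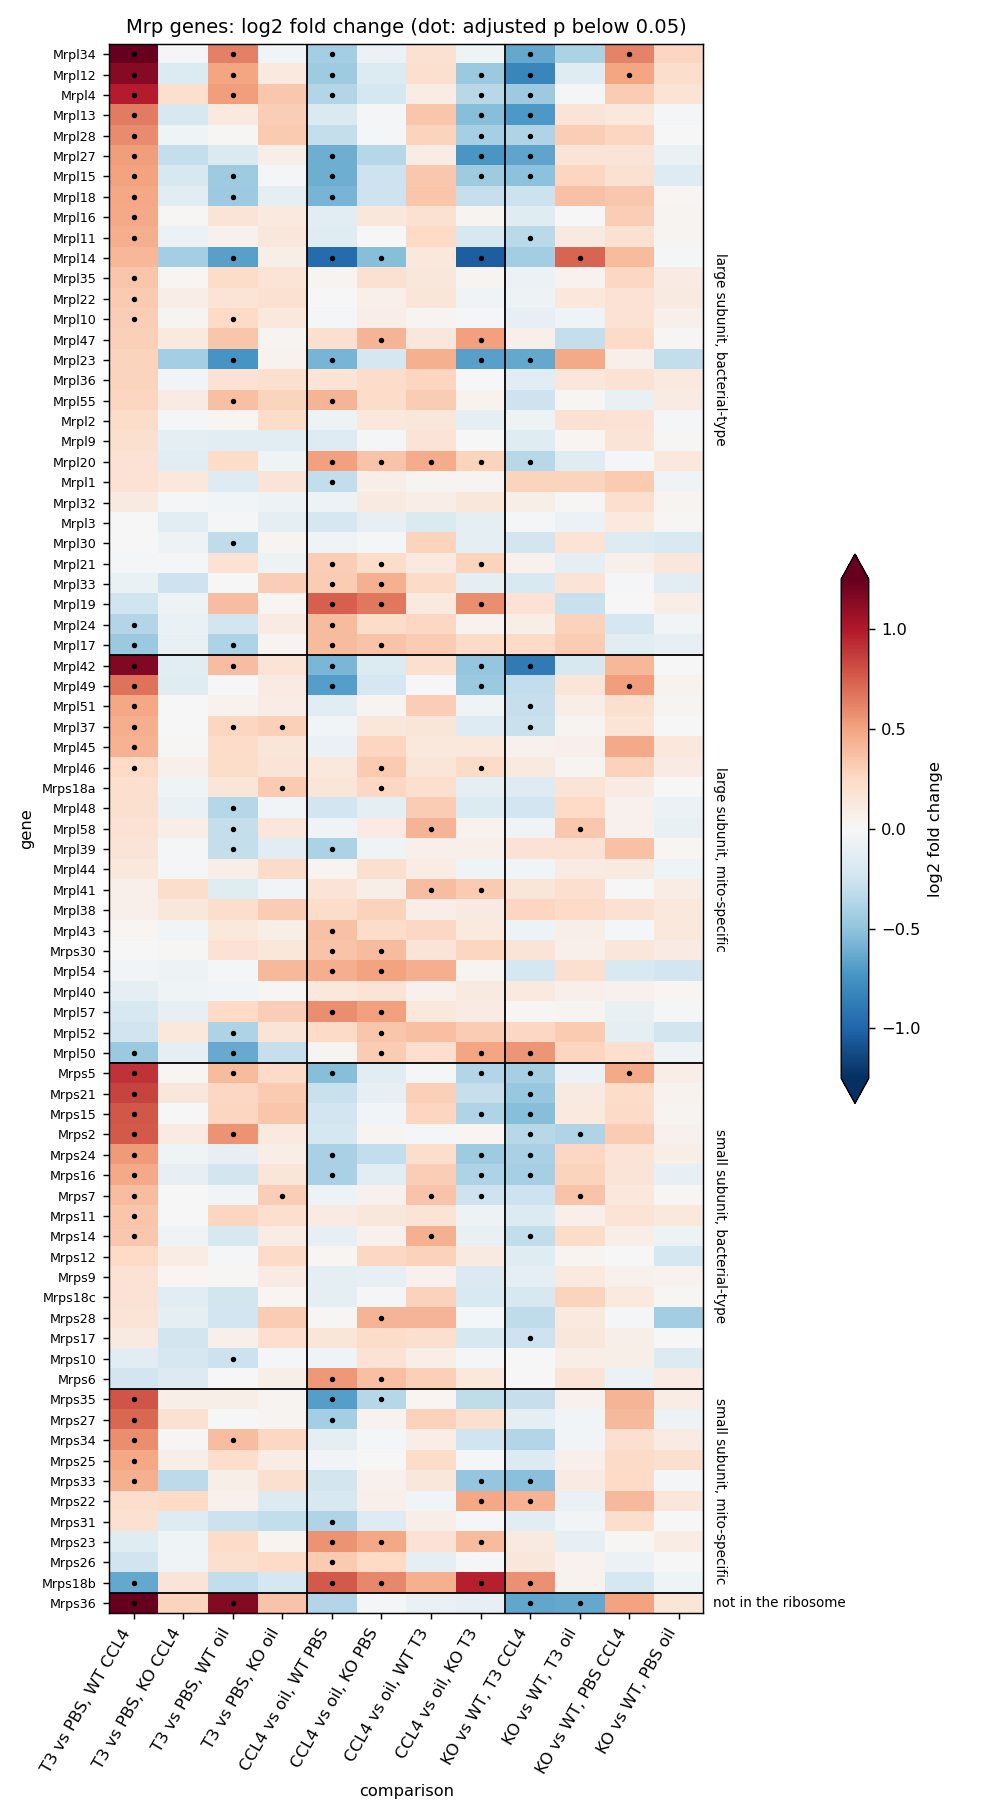
Log2 fold changes of the 77 tested Mrp genes (rows, by subunit and by whether a bacterial counterpart exists) in 12 comparisons of group pairs (columns), with a black dot for an adjusted p under 0.05. The T3 column of WT livers with CCL4 holds 34 higher and 4 lower calls (11 and 17 under scaling by total counts), and the T3 column of KO livers with CCL4 holds 0.

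In KO livers with CCL4, T3 gave 0 calls among the 77 members, against 2.54% of all genes (1.77% higher, 0.769% lower), and the median log2 fold change was -0.03. DESeq2 also called 0, and 5 members had an unadjusted p under 0.05. Genes that rose in WT livers measured -0.14 ± 0.12 (Mrpl42, adjusted p = 0.612), -0.17 ± 0.12 (Mrpl12, 0.546), -0.02 ± 0.16 (Mrpl34, 0.979) and 0.02 ± 0.12 (Mrps5, 0.956) in KO livers. Of those that fell in WT livers, Mrps18b measured 0.16 ± 0.15 and Mrpl50 -0.12 ± 0.11 in KO livers. Without WT liver 2 and KO liver 3 of the groups with PBS and CCL4, 3 members were called, all lower. Calls over all genes then numbered 1149, 551 of them higher, against 396 with all livers.

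The difference between the T3 responses of the genotypes was tested directly, as the KO response minus the WT response. With CCL4 it called 28 members, 1 higher and 27 lower, against 22.7% of all genes (10.3% higher, 12.4% lower), and the median difference was -0.31 over the members. Mrpl12 (-1.31 ± 0.17, adjusted p = 4.01e-06), Mrpl42 (-1.30 ± 0.16, 2.55e-06), Mrpl34 (-1.26 ± 0.22, 0.000196), Mrps5 (-0.88 ± 0.17, 0.000443) and Mrpl13 (-0.85 ± 0.17, 0.000674) led, and Mrps18b (0.79 ± 0.21, 0.00814) was the member whose response was higher in KO livers. Those 6 calls held under every alternative tried. Scaling by total counts left 11 calls, 4 higher and 7 lower, with 2610 of 3852 calls over all genes higher. It took the calls of Mrpl49, Mrpl15, Mrps15, Mrps35, Mrps2 and Mrps21, with adjusted p-values of 0.0501 to 0.151. The members' median was below that of all genes, by 0.36 with TMM scaling and 0.34 with scaling by total counts. Scaling hardly alters such a distance for any set of genes, so its near equality is no separate check.

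KO livers were also compared with WT livers when both had received T3 and CCL4. Here 3 members were higher and 23 lower in KO livers, 26 of 77 against 22.9% of all genes (10.4% higher, 12.5% lower), with a median log2 fold change of -0.16. Mrpl42 (-0.88 ± 0.12, adjusted p = 3.02e-06), Mrpl12 (-0.81 ± 0.12, 1.96e-05) and Mrpl13 (-0.72 ± 0.12, 8.52e-05) had the smallest adjusted p-values, and Mrpl34 fell by 0.64, Mrps15 by 0.53, Mrpl15 by 0.51 and Mrps21 by 0.48 on the log2 scale. Mrpl50 (0.56 ± 0.11, 0.000457), Mrps18b (0.57 ± 0.15, 0.00715) and Mrps22 (0.44 ± 0.13, 0.0118) were the 3 higher in KO livers. Of proteins with bacterial counterparts, 10 of 30 large-subunit and 8 of 16 small-subunit genes were lower and 0 of either were higher. The 3 higher genes encode mitochondria-specific proteins, and whether the classes differ was not tested. Mrps5, at -0.41 ± 0.12, lost its call without WT liver 4 with T3 and CCL4 (adjusted p = 0.0577), and Mrps14, at -0.31 ± 0.10, lost it without KO livers 2 or 3 or WT liver 1 of these groups (0.0638 to 0.0722). Under scaling by total counts their adjusted p-values were 0.183 and 0.196. Calls numbered 16 without KO liver 3 and 17 without WT liver 4. Scaling by total counts gave 15, 6 higher and 9 lower, with 2174 of 3557 calls over all genes higher. Hepatocyte marker sums overlapped between these groups, at 91503 to 118524 CPM in KO livers and 80739 to 118247 CPM in WT livers. Sums of neutrophil markers (32.4 to 59.3 CPM in KO livers, 17.2 to 22.4 in WT livers) did not overlap. Nor did those of lymphocyte markers (6.76 to 8.11 and 10.4 to 12.6) and cell-cycle genes (56.8 to 70.7 and 80.7 to 119). The remaining marker lists overlapped, and the part of these shifts in the Mrp values was not tested.

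**Figure D3:**
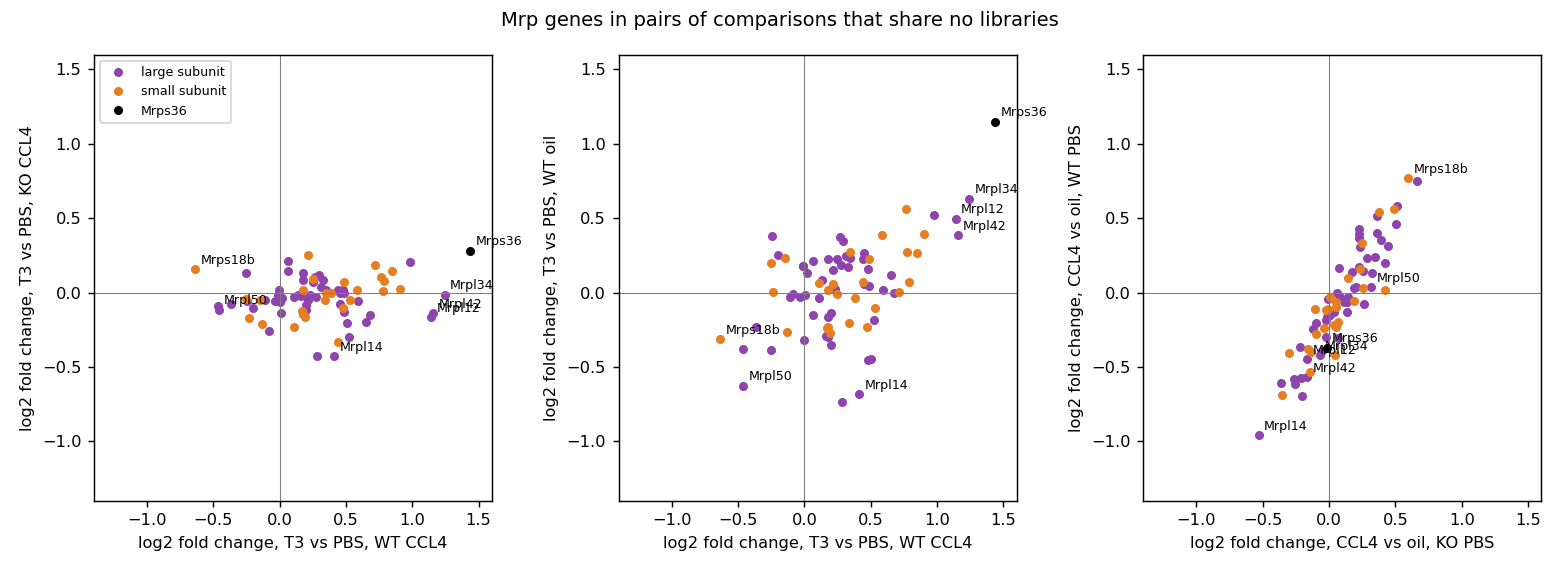
Each point is 1 of the 77 Mrp genes, and both axes are log2 fold changes. Left, T3 against PBS in CCL4 livers of WT (x) and KO (y) mice; middle, the same T3 comparison in WT livers with CCL4 (x) and with oil (y); right, CCL4 against oil under PBS in KO (x) and WT (y) mice. Correlations across genes are 0.13, 0.52 and 0.92.

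In oil-injected livers the T3 response of these genes was divided. In WT livers with oil, 11 members rose and 12 fell with T3, 23 of 77 against 35.3% of all genes (19.0% higher, 16.2% lower), and the median log2 fold change was 0.06. Large-subunit genes supplied 11 of the 12 that fell and 7 of the 11 that rose, small-subunit genes 1 and 3, and Mrps36 the last. Under scaling by total counts the split was 16 higher and 3 lower, with 3427 of 5110 calls over all genes higher. Mrpl50 fell by 0.63 (SE 0.11, adjusted p = 3.91e-05) and Mrpl23, which lies at the mouth of the peptide tunnel, by 0.74 (SE 0.17, 0.00131). Mrps2 rose by 0.56 ± 0.12, Mrpl34 by 0.63 ± 0.16, Mrpl4 by 0.52 ± 0.14 and Mrpl12 by 0.50 ± 0.12.

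Mrps36 measured 12.4, 15.5, 18.1 and 8.08 CPM in WT livers with T3 and oil against 7.48, 5.05, 5.18 and 6.69 CPM in WT livers with PBS and oil, with no overlap and a log2 fold change of 1.15 ± 0.22 (adjusted p = 0.000175). Mrpl15 fell by 0.44 (SE 0.12), a call lost under scaling by total counts (0.057). Among small-subunit genes, Mrps5 (0.39 ± 0.12) lost its call without WT liver 3 with T3 and oil (0.0638), and Mrps34 (0.39 ± 0.14) lost it without WT liver 2 with T3 and oil (0.252) or WT livers 2 or 4 with PBS and oil (0.0614 and 0.0712). Mrps10, at -0.27 ± 0.08, lost its call without WT livers 3 or 4 with T3 and oil or WT liver 1 with PBS and oil (0.0529 to 0.0633), and its adjusted p was 0.352 under scaling by total counts. A summed level of 9 cell-cycle genes was 131 to 309 CPM in WT livers with T3 and oil against 31.8 to 40.7 CPM in WT livers with PBS and oil, and its part in these values was not tested.

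The WT lists with oil and with CCL4 rest on different livers. They shared 14 members, 60.9% of the 23 called with oil and 36.8% of the 38 called with CCL4. With 38 of 77 members called with CCL4, even unrelated lists would share many, and the overlap over all genes was not counted. Of the 14, 10 rose in both, Mrpl17 and Mrpl50 fell in both, and Mrpl15 and Mrpl18 rose with CCL4 and fell with oil. Across the 77 genes the 2 sets of log2 fold changes had a correlation of 0.52, a description of genes that are not independent. The difference between the 2 responses, CCL4 minus oil, was called for 25 members, all higher, against 23.9% of all genes (10.8% higher, 13.1% lower). The median difference was 0.21. Mrpl15 led (0.95 ± 0.16, adjusted p = 0.000309), followed by Mrpl42 (0.77 ± 0.16, 0.00178), Mrpl23 (1.02 ± 0.24, 0.0044) and Mrpl14 (1.09 ± 0.27, 0.00518), and 9 of the 25 were small-subunit genes. Under scaling by total counts the split turned to 1 higher and 16 lower, with 620 of 6004 calls over all genes higher. Of the 12 members named for this difference only Mrpl15 kept its call under that scaling, the others having adjusted p-values of 0.0565 to 0.728. Calls numbered 14 without WT liver 4 with T3 and oil, and 14 without WT liver 2 with PBS and CCL4.

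Scaling by total counts gave 9 members higher and 0 lower with T3 in KO livers with oil, with 1663 of 2355 calls over all genes higher. With TMM scaling KO livers with oil had 3 members higher with T3 and 0 lower, 3 of 77 against 18.7% of all genes (10.6% higher, 8.11% lower), and a median log2 fold change of 0.13. The 3 were Mrps18a (0.33 ± 0.09, adjusted p = 0.0141), Mrpl37 (0.30 ± 0.09, 0.0225) and Mrps7 (0.31 ± 0.10, 0.0308). Leaving out single libraries gave 0 to 9 calls, with 9 without KO liver 1 with T3 and oil, 1 without liver 3 and 0 without liver 4, and 1, 1 and 0 without KO livers 1, 2 and 3 with PBS and oil. None of the 3 genes was called in every such fit: Mrps18a lost its call without KO liver 4 with T3 and oil or KO livers 1, 2 or 3 with PBS and oil (0.0564 to 0.0784), and Mrpl37 and Mrps7 reached 0.117 and 0.119 without KO liver 3 with PBS and oil. The difference between the genotypes' T3 responses with oil was called for 5 members, 4 higher and 1 lower in KO livers, against 12.2% of all genes (5.58% higher, 6.64% lower), and scaling by total counts gave 1 higher and 1 lower. The 5 were Mrpl23 (0.78 ± 0.24, adjusted p = 0.0345), Mrpl58 (0.44 ± 0.14, 0.0359), Mrps28 (0.56 ± 0.18, 0.0436), Mrpl52 (0.55 ± 0.18, 0.0458) and Mrpl34 (-0.66 ± 0.22, 0.0496). Leaving out 1 library gave 0 to 4 calls, and the count fell to 3 or fewer without any of the 16 libraries except KO liver 1 and WT liver 2 with T3 and oil.

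CCL4 by itself was followed by changes in both directions. In WT livers with PBS, 15 members were higher and 18 lower with CCL4 than with oil, 33 of 77 against 46.2% of all genes (24.6% higher, 21.6% lower), and the median log2 fold change was -0.07. Under scaling by total counts the split was 41 higher and 1 lower and the median 0.33, with all genes at 0.43. The members' share of all counts was 0.281 ± 0.022% with CCL4 against 0.224 ± 0.019% with oil (SD, n = 4 each). Mrps18b (0.77 ± 0.15, adjusted p = 0.000221), Mrpl20 (0.51 ± 0.09, 9.39e-05), Mrpl57 (0.58 ± 0.15, 0.00269), Mrps23 (0.56 ± 0.14, 0.0016) and Mrps6 (0.54 ± 0.14, 0.00281) rose, and Mrpl14, which lies at the face between the subunits, fell by 0.96 (SE 0.19, 0.000237). Those 6 calls held under every alternative tried.

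Mrpl14 measured 27.2, 13.5, 27.4 and 35.3 CPM in WT livers with PBS and CCL4 against 57, 54, 40.7 and 49.6 CPM in WT livers with PBS and oil. The groups did not overlap, and WT liver 2 was the lowest of the CCL4 livers. Mrpl49 (-0.69 ± 0.13), Mrps35 (-0.69 ± 0.13), Mrpl15 (-0.61 ± 0.12), Mrpl42 (-0.57 ± 0.12) and Mrps5 (-0.54 ± 0.12) also fell, and all of these calls were lost under scaling by total counts, with adjusted p-values of 0.138 to 0.45. Mrps31 fell by 0.38 (SE 0.11, adjusted p = 0.00766), and its log2 fold change was 0.011 under that scaling. Of the hepatocyte markers 8 of 9 fell with CCL4 in these livers, and the summed level of the neutrophil markers was 24.2 to 283 CPM with CCL4 against 5.68 to 16 CPM with oil. Their part in the Mrp values was not tested.

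KO livers with PBS had 17 members higher and 2 lower with CCL4 than with oil, 19 of 77 against 31.1% of all genes (17.8% higher, 13.4% lower), with a median log2 fold change of 0.07. Mrps18b (0.60 ± 0.15, adjusted p = 0.00469), Mrpl20 (0.36 ± 0.09, 0.00494), Mrpl33 (0.45 ± 0.13, 0.01) and Mrpl57 (0.51 ± 0.15, 0.0127) rose under every alternative tried. Mrpl19 (0.66 ± 0.20), Mrps23 (0.49 ± 0.14), Mrps30 (0.39 ± 0.12) and Mrpl46 (0.33 ± 0.09) lost their calls without KO liver 3 with PBS and CCL4, at adjusted p-values of 0.141, 0.0875, 0.193 and 0.076. Mrpl14 fell by 0.53 (SE 0.19) and Mrps35 by 0.36 (SE 0.13), the only members lower here, and both calls were lost without KO liver 4 with PBS and oil (0.111 and 0.119), among others. Mrps28 (0.42 ± 0.13) and Mrps6 (0.38 ± 0.14) also rose, and each call was lost without several single livers, at adjusted p-values of up to 0.0632 and 0.196. Calls numbered 8 without KO liver 3 with PBS and CCL4, and 12, 10 and 10 without KO livers 1, 3 and 4 with PBS and oil. Under scaling by total counts 46 members were higher and 0 lower, with 5467 of 6333 calls over all genes higher. The median was then 0.39 over the members and 0.35 over all genes. The KO and WT lists with PBS rest on different livers and shared 13 members, all in the same direction, 68.4% of the KO list and 39.4% of the WT list, with a correlation of 0.92 across the 77 genes. The overlap of the 2 lists over all genes was not counted. The test of the difference between the genotypes' CCL4 responses called 0 members, against 0.0192% of all genes, with 8 at an unadjusted p under 0.05 and 0 by DESeq2.

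With T3 given, KO livers had 10 members higher and 16 lower with CCL4 than with oil, 26 of 77 against 39.6% of all genes (19.7% higher, 19.8% lower). Scaling by total counts gave 14 higher and 6 lower, with 3905 of 6071 calls over all genes higher. Mrpl14 measured 25.1, 23.6, 25.7 and 27.2 CPM in KO livers with T3 and CCL4 against 43.6, 61.1, 57.1 and 45.5 CPM in KO livers with T3 and oil, with no overlap and a log2 fold change of -1.03 ± 0.19 (adjusted p = 0.000169). Mrpl27 fell by 0.73, Mrpl23 by 0.68, Mrpl13 by 0.54, Mrpl42 by 0.48 and Mrps24 by 0.44 on the log2 scale. Mrps18b (0.97 ± 0.15, 2.97e-05), Mrpl47 (0.51 ± 0.15), Mrpl50 (0.49 ± 0.11) and Mrps22 (0.49 ± 0.13) rose, and all 10 calls held under every alternative tried. Mrps5 (-0.36 ± 0.12) lost its call without KO liver 4 with T3 and CCL4 (0.0623) or KO liver 3 with T3 and oil (0.0554), and under scaling by total counts (0.289). Mrps23 (0.40 ± 0.14) and Mrps33 (-0.48 ± 0.17) lost theirs without KO liver 3 with T3 and CCL4 (0.082 and 0.064) or KO liver 2 with T3 and oil (0.107 and 0.0768), and Mrps33 also under scaling by total counts (0.0963).

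WT livers with T3 had 5 members higher and 0 lower with CCL4, 5 of 77 against 3.4% of all genes (1.67% higher, 1.74% lower), with a median log2 fold change of 0.19. They were Mrpl20 (0.47 ± 0.09, adjusted p = 0.00258), Mrps14 (0.44 ± 0.10, 0.00604), Mrpl58, a peptidyl-tRNA hydrolase built into the large subunit (0.43 ± 0.10, 0.00907), Mrpl41 (0.38 ± 0.10, 0.0202) and Mrps7 (0.36 ± 0.10, 0.0428). Mrps14 alone was called in every fit, and under scaling by total counts it was the sole member called. Calls numbered 3 without WT liver 2 with T3 and CCL4, and 3, 3 and 2 without WT livers 1, 3 and 4 with T3 and oil. Mrpl58 had an adjusted p of 0.0573 without WT liver 4 with T3 and oil, and Mrpl41 and Mrps7 were each lost without several single livers, at up to 0.0708 and 0.184. Whether the CCL4 responses with T3 differ between the genotypes was not tested.

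Without T3 few members were called between the genotypes. Between KO and WT livers with PBS and oil, 0 of 77 members were called, against 0.538% of all genes (0.404% higher, 0.135% lower), with 2 at an unadjusted p under 0.05 and 0 by DESeq2. With PBS and CCL4, 4 members were higher in KO livers and 0 lower, against 2.25% of all genes (1.21% higher, 1.04% lower). These were Mrpl49 (0.53 ± 0.13, adjusted p = 0.0265), Mrpl12 (0.50 ± 0.12, 0.029), Mrps5 (0.47 ± 0.12, 0.0365) and Mrpl34 (0.62 ± 0.16, 0.0367), and each was lost under scaling by total counts (0.0957 to 0.174). The count was 0 without WT livers 1 or 2 or KO liver 4 of these groups, 1 without KO liver 2 and 13 without WT liver 4, and without WT liver 2 the 4 genes had adjusted p-values of 0.143 to 0.209. Calls over all genes also rose without WT liver 4, to 1746 from 351 with all livers. With T3 and oil, 3 members were higher and 2 lower in KO livers, 5 of 77 against 16.3% of all genes (7.14% higher, 9.21% lower). Scaling by total counts turned the split to 1 higher and 3 lower, with 759 of 2595 calls over all genes higher. Mrpl14 (0.73 ± 0.19, adjusted p = 0.00883) was higher in KO livers under every alternative tried, at 43.6 to 61.1 CPM in KO livers against 28.5 to 35.6 CPM in WT livers. Mrps7 (0.36 ± 0.10), Mrpl58 (0.34 ± 0.10), Mrps2 (-0.38 ± 0.12) and Mrps36 (-0.64 ± 0.22) lost their calls without KO liver 2 with T3 and oil (0.0548, 0.0679, 0.0794 and 0.148), and calls numbered 3, 3 and 2 without KO liver 2, WT liver 1 and WT liver 3 of these groups.

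Related mitochondrial genes were set beside the Mrp genes with lists chosen by function. Dap3 and Chchd1, which encode small-subunit proteins under other symbols, rose with T3 in WT livers with CCL4 by 0.51 ± 0.11 and 0.39 ± 0.08, and they were 2 of 5 such genes, with 0 lower, though both calls were lost under scaling by total counts. Of 16 mitochondrial translation factors 10 rose and 0 fell (median log2 fold change 0.50), against 4 and 3 under scaling by total counts. Gfm1, the elongation factor that moves the ribosome along, rose by 0.94 ± 0.18, Rmnd1, which anchors the ribosome to the inner membrane, by 0.82 ± 0.15, and Guf1, a back-translocating factor, by 0.77 ± 0.15. Of 24 genes for ribosome assembly and ribosomal RNA 5 rose and 5 fell, among them the helicase Ddx28 (-1.33 ± 0.17) and the pseudouridine synthase Rpusd4 (-0.69 ± 0.17), against 0 and 9 under scaling by total counts. Of 20 tRNA synthetases and related enzymes 6 rose and 2 fell, with Fars2 at 0.90 and Gatb at 0.85, against 2 and 7 under that scaling. Of 13 genes for transcription and replication of mitochondrial DNA 2 rose and 1 fell, against 0 and 5 under that scaling, and of 9 mitochondrially encoded protein genes tested 5 rose and 0 fell, against 3 and 0. In the list of 10 regulators of mitochondrial biogenesis 3 rose and 5 fell (3 and 6 under that scaling), with the orphan receptor Esrrg at 6.0 ± 0.44, Esrra at 0.89 ± 0.16 and Myc at -2.54 ± 0.35.

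The products of the Mrp genes help to make the respiratory chain, whose nuclear genes were set beside them. With T3 in WT livers with CCL4, 34 of the 77 Mrp genes rose and 4 fell (11 and 17 under scaling by total counts), against 71 and 0 of 76 nuclear-encoded respiratory chain genes (55 and 1), whose median log2 fold change was 0.78. Between KO and WT livers with T3 and CCL4, 3 Mrp genes were higher and 23 lower, against 0 and 73 respiratory chain genes (median -0.75), and under scaling by total counts 6 and 9 against 0 and 71. The protein genes of the cytosolic ribosome moved the other way with T3 from the respiratory chain. In WT livers, T3 raised 0 and lowered 67 of 77 with CCL4 (median -0.47; 0 and 76 under scaling by total counts), and 0 and 74 with oil (median -0.72; 0 and 62). Between KO and WT livers with T3 and CCL4, 1 cytosolic gene was higher and 0 lower. With CCL4 in WT livers with PBS, the Mrp genes divided into 15 higher and 18 lower, while 0 respiratory chain genes rose and 50 fell and 38 cytosolic genes rose and 0 fell. Under scaling by total counts these splits were 41 and 1, 8 and 12, and 74 and 0. No test compared one list with another.

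**Figure D4:**
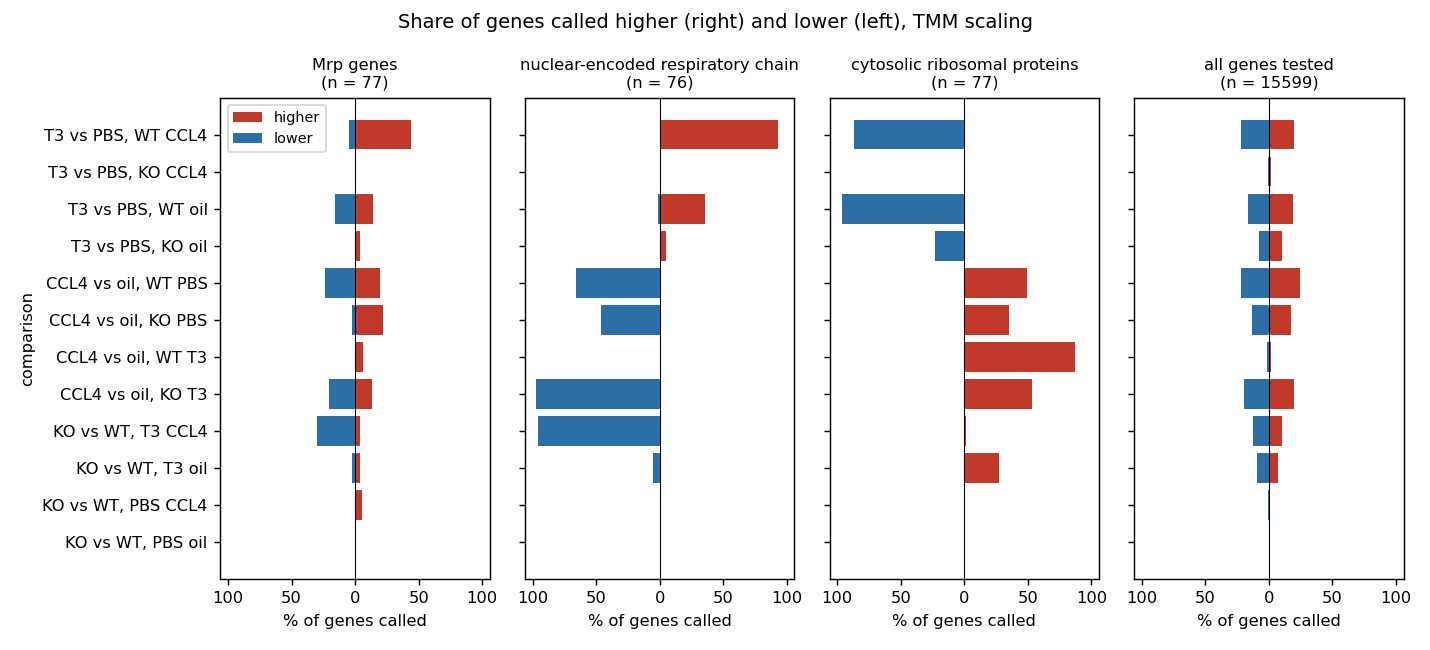
Percent of genes called higher and lower in 12 comparisons among the 77 Mrp genes, 76 respiratory chain genes, 77 cytosolic ribosomal protein genes and all 15599 genes tested. With T3 in WT livers with CCL4, 34 Mrp genes were higher and 4 lower (11 and 17 under scaling by total counts), beside 71 and 0 respiratory chain genes (55 and 1) and 0 and 67 cytosolic ribosomal genes (0 and 76).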

How the data were processed

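Polyadenylated liver RNA was sequenced with TruSeq v2 or TruSeq Stranded kits, per the labels' protocols, which do not say which library had which kit, so a kit batch and the groups cannot be told apart. STAR 2.7.9a, cutadapt, Trim Galore, FastQC 0.11.5 and the build GRCm38 are listed, per the submitters' processing notes. The deposited values are raw counts per Ensembl gene. Its counting tool, annotation and strand setting were not given in the sources used here. Library totals were 16985162 to 26118055 counts, and counting error is part of the spread between mice, most of all for members with few reads.

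Ensembl IDs were paired with symbols through a reference table (52489 of 52636 matched, and the 147 others held at most 0.00558% of a library's counts). Genes were kept with filterByExpr (minimum count 10, minimum total 15), which left 15599. CPM were computed with TMM-scaled library sizes. edgeR 4.0.16 in R 4.3.3 fitted 1 mean per group over all 32 libraries with its quasi-likelihood F test, and p-values were adjusted over all genes tested by the Benjamini-Hochberg method. The SE is the absolute log2 fold change divided by the square root of F. There were 12 comparisons of group pairs and 4 differences of responses. The script was tested on simulated counts.

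Alternatives were DESeq2's size factors, scaling by total counts, no filter, a replicate block, a fit of the compared groups only, DESeq2 1.42.0 (an adjusted p it gave as NA stayed NA), and leaving out each library or the farthest 2 together. Members and lists were chosen with earlier results of these data known. The genes named are the 6 members of each subunit with the smallest adjusted p among those called, the 4 against the majority direction, and all where at most 5 were called. Per-library values are given for the 4 members with the smallest p in the 8-group test, and for Mrpl14, Mrpl34, Mrps5 and Mrps36, which were chosen after their values were seen. Promoter windows are from RefSeq (GRCm38.p6), and gene positions are those of GRCm38.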

Additional observations from a re-analysis of the deposited data

Results flagged for a closer look

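In KO livers with PBS and CCL4, 1 liver stood apart for Mrpl50. The 4 values were 79.1, 79.5, 105.03 and 76.7 CPM, and the gap of KO liver 3 to its nearest neighbour was 0.901 of the whole range, above Dixon's critical value for 4 samples. That liver also lay far from its group over all genes. Of 40 combinations of gene and group tested in this way this was the 1 found. Chance gives about 1 in every 20 combinations, so 1 in 40 is no more than chance gives.

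The T3 response with CCL4 differed between KO and WT livers for 28 members by the test of the difference itself (edgeR's quasi-likelihood test). This was 28 of 77 members, against 22.7% of all genes. The differences, KO response minus WT response on the log2 scale, were -1.31 for Mrpl12, -1.30 for Mrpl42, -1.26 for Mrpl34, -0.88 for Mrps5, -0.85 for Mrpl13 and -0.83 for Mrpl49. Further small-subunit genes measured -0.77 (Mrps15), -0.71 (Mrps35), -0.70 (Mrps21) and -0.66 (Mrps2), and Mrpl15 measured -0.71. Mrps18b was the exception among those named, at 0.79. Scaling by total counts left 11 calls, 4 higher and 7 lower. Mrpl49, Mrpl15, Mrps15, Mrps35, Mrps21 and Mrps2 lost their calls under it.

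With oil the same test called 5 of 77 members, against 12.2% of all genes. The 5 were Mrpl23 (0.78), Mrps28 (0.56), Mrpl52 (0.55), Mrpl58 (0.44) and Mrpl34 (-0.66). The tests with oil and with CCL4 shared 2 called members. The T3 response of Mrpl34 was lower in KO than in WT livers each time, and that of Mrpl23 was higher with oil and lower with CCL4. Their oil calls were each lost in 12 alternative fits. Those of Mrps28, Mrpl52 and Mrpl58 were lost in 17, 16 and 12.

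In WT livers the T3 response with CCL4 minus that with oil was called for 25 of 77 members, against 23.9% of all genes. Among large-subunit genes it was 1.09 for Mrpl14, 1.02 for Mrpl23, 0.95 for Mrpl15, 0.93 for Mrpl18, 0.77 for Mrpl42 and 0.68 for Mrpl49. Among small-subunit genes it was 0.71 for Mrps35, 0.71 for Mrps16, 0.71 for Mrps27, 0.63 for Mrps24, 0.58 for Mrps21 and 0.54 for Mrps14. Of these 12, Mrpl15 alone kept its call under scaling by total counts. The members called under that scaling divided into 1 higher and 16 lower.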

How the results depend on the processing

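Of 122 values of named Mrp genes in the 16 comparisons, 59 kept their direction and call under every alternative and 63 lost the call under at least 1, of which 46 under scaling by total counts and 24 under that scaling alone. Mrps31 with CCL4 in WT livers with PBS was the value that changed sign, to 0.011 under that scaling (adjusted p = 0.952). Scaling by total counts moved the number of members called to 46 (CCL4 in KO livers with PBS), 15 (KO against WT with T3 and CCL4), 11 and 2 (difference of T3 responses between genotypes with CCL4 and with oil), 9 (T3 in KO livers with oil), 1 (CCL4 in WT livers with T3) and 0 (KO against WT with PBS and CCL4). Without the filter the counts were 0 (T3 in KO livers with oil), 14 (T3 in WT livers with oil), 9 and 2 (CCL4 in KO livers with PBS and in WT livers with T3), 13, 1 and 0 (KO against WT with T3 and CCL4, with T3 and oil, and with PBS and CCL4), 16 and 0 (difference between genotypes with CCL4 and with oil) and 11 (difference between injections). A fit of the compared groups only gave 7 and 17 (CCL4 in KO and in WT livers with PBS), 1 (T3 in KO livers with oil), 3 and 0 (KO against WT with T3 and oil, and with PBS and CCL4) and 15 (difference between injections). DESeq2 called 5 (T3 in KO livers with oil) and 12 (KO against WT with PBS and CCL4), and its size factors in edgeR gave 3 for the difference between genotypes with oil. Without WT liver 2 and KO liver 3 with PBS and CCL4 together the counts were 12 (CCL4 in KO livers with PBS), 9 and 3 (T3 in KO livers with oil and with CCL4), 0 (KO against WT with PBS and CCL4) and 8 (difference between genotypes with oil). Smaller moves without them were to 26 for CCL4 in WT livers with PBS, and to 37 and 28 for T3 in WT livers with CCL4 and oil. The differences moved to 30 between genotypes with CCL4 and to 20 between injections. The causes were not tested.

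Leaving out 1 library gave 0 to 0 calls for T3 in KO livers with CCL4, 32 to 38 in WT livers with CCL4, 0 to 9 in KO livers with oil and 16 to 22 in WT livers with oil. For CCL4 it gave 8 to 17 and 25 to 34 in KO and WT livers with PBS, and 19 to 26 and 2 to 6 in KO and WT livers with T3. For KO against WT it gave 16 to 24 with T3 and CCL4, 2 to 7 with T3 and oil, 0 to 13 with PBS and CCL4 and 0 to 0 with PBS and oil. The differences of responses gave 20 to 31 and 0 to 4 between genotypes with CCL4 and with oil, 14 to 28 between injections, and 0 to 0 for CCL4 between genotypes.

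The replicate numbers only name libraries: same-numbered libraries had a mean correlation of their deviations of -0.002 over 112 pairs, 13 pairs were over 0.1, and 6 of 32 libraries correlated best with their own number. A replicate block left every count within 1.5 times of the count without it, with 38 calls for T3 in WT livers with CCL4 and 28 for the difference between genotypes. Members under about 10 CPM, such as Mrps36, rest on the fewest reads, and p-values cover the spread between these mice.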

Other observations

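Averaged over the 77 members after TMM scaling, the log2 level of a liver relative to each gene's own mean over the 32 livers was 0.17 in WT livers with T3 and CCL4 (0.14 to 0.20 over the 4 livers) and -0.12 in WT livers with PBS and CCL4 (-0.19 to -0.05). Their share of all counts, which takes no such scaling, had its means in the other order, at 0.269% in WT livers with T3 and CCL4 (0.251% to 0.277%) and 0.281% in WT livers with PBS and CCL4 (0.260% to 0.312%), and overlapped between the groups. KO livers with CCL4 were at 0.006 with T3 and 0.03 with PBS. WT livers with T3 and oil spread most, from -0.20 to 0.10.

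The CCL4 lists of KO livers with T3 and of WT livers with PBS rest on no common liver. Of the 26 members called in KO livers with T3 and the 33 called in WT livers with PBS, 16 were in both, all in the same direction (61.5% of the first list and 48.5% of the second). The overlap of these lists over all genes was not counted. Across the 77 genes the log2 fold changes had a correlation of 0.75, a description of genes that are not independent.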
